A study of Homo sapiens with 6 samples.

Results

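Fatty acid oxidation in RPE1 cells was followed here through 10 genes, ACADM, ACADS, ACADVL, HADHA, HADHB, HADH, CPT1A, CPT2, ETFA and ETFB, of the 60666 genes listed on the primary chromosomes. The genes were chosen by name as enzymes of one pathway, with the log2 fold changes of these same 6 samples already known, that of ACADM among them. The changes of the 10 genes are therefore a description, given with intervals and without printed p-values. Where a gene of the 10 is said to pass a p-value threshold or not, that is description too and no test of the gene. RPE1 is a human cell line from the retinal pigment epithelium, made immortal with hTERT, and the samples came from a derivative carrying a lentiviral shRNA that doxycycline induces, a short hairpin RNA directed at OFD1, a centriolar satellite protein. The 3 control samples, labelled genotype WT, carried the same inducible shRNA and received no doxycycline. The 3 OFD1-depleted samples, labelled OFD1 knockdown, received 200 ng/mL doxycycline, and all 6 were labelled 72 hours. Whether the line was a single clone is not given in the sources used here. No sample received doxycycline without the shRNA, and none carried a control hairpin or another hairpin. The agent, effects of this hairpin on other transcripts and the depletion of OFD1 therefore cannot be told apart. The study reports that doxycycline inhibited the proliferation of such a line. It also reports arrest before S phase in RPE1 cells given small interfering RNA against OFD1. The part of such an arrest in the changes described here was not tested.

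Mitochondria burn fatty acids by removing carbon units from an acyl-CoA in a repeated cycle. CPT1A and CPT2 are the outer and inner membrane enzymes of the carnitine shuttle that brings long chains into the matrix. ACADVL, ACADM and ACADS are the dehydrogenases that open the cycle on very long, medium and short chains, and they hand their electrons to the electron transfer flavoprotein, whose subunits are encoded by ETFA and ETFB. HADHA and HADHB form the trifunctional protein, which carries out the remaining steps on long chains, and HADH is the dehydrogenase for medium and short 3-hydroxyacyl chains. The retinal pigment epithelium is known to burn fatty acids from the photoreceptor membranes that it ingests.

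Levels are given in FPKM, that is, fragments per kilobase of transcript for a fixed number of mapped fragments, so levels can be set side by side between genes. OFD1 itself read 3.34, 3.62 and 3.44 FPKM without doxycycline and 0.795, 0.763 and 1.43 FPKM with it (log2 fold change -1.75, limma adjusted p = 0.00085). The commonest low value in each sample, read as 1 fragment over 150 bases, put 1 FPKM at between 37.5 and 44.0 fragments per kilobase of transcript, depending on the sample. Summed FPKM lay between 408302 and 414547 in control and between 433262 and 493510 in OFD1-depleted samples, highest in OFD1-depleted replicate 2. The labels name retina as the tissue, but the photoreceptor markers SAG, RCVRN, CRX and PDE6B were listed at 0 in all 6 samples. Of the photoreceptor markers above 0, NRL was the highest, between 0.0978 and 0.286 FPKM, and ARR3 reached at most 0.141 FPKM. Of 5 Mueller glia markers, CLU averaged 18.5 FPKM and GLUL 8.66 FPKM, while SLC1A3, RGR and AQP4 were at or near 0. The 5 summed to between 29.7 and 35.6 FPKM in control and between 20.2 and 22.9 FPKM in OFD1-depleted samples, and their part in the results was not tested. The epithelial genes KRT8, KRT18 and TJP1 were present, whereas CDH1 and EPCAM were at or near 0. Of 10 pigment epithelium markers, MITF, RDH5 and OTX2 averaged at least 1 FPKM, and RPE65 averaged 0.0887 FPKM. The marker BEST1 read 4.33 FPKM in OFD1-depleted replicate 2 and at most 0.0475 FPKM in every other sample.

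In the control samples the 10 genes spanned from 79.6 FPKM for ACADVL to 1.28 FPKM for ACADS. Next to ACADVL came ETFB at 57.5 and HADHA at 51.9 FPKM, whose ranges overlapped. HADHB at 36.5 and ETFA at 31.9 FPKM overlapped as well. ACADM at 12.7 and HADH at 12.5 FPKM could not be told apart, and CPT2 at 6.46, CPT1A at 4.97 and ACADS followed in separate ranges. The very-long-chain dehydrogenase was thus the most abundant of the 3 dehydrogenase transcripts in control cells, and the short-chain one lay at the bottom of the order. In OFD1-depleted cells the order of the means was the same except for ACADM, which moved from place 6 to place 9, below CPT1A. There the range of ACADM overlapped that of ACADS. In the OFD1-depleted samples ACADVL, ETFB, HADHA and HADHB each overlapped the next gene in the order. The order of these genes and ETFA was thus not resolved in that group.

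**Figure D1:**
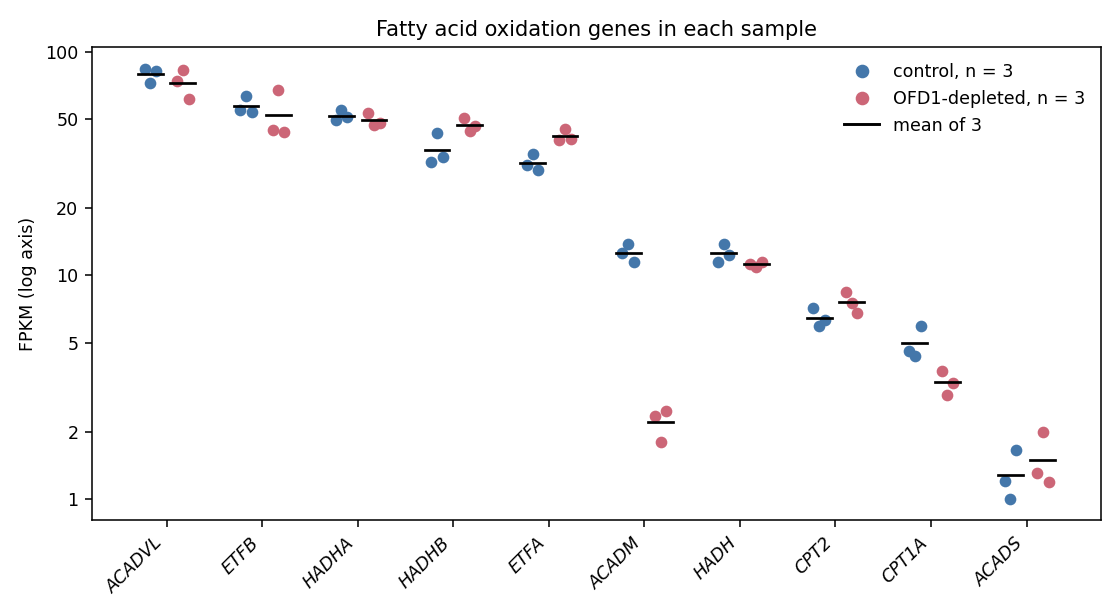
FPKM of the 10 genes (log axis) in each of 3 control and 3 OFD1-depleted samples, ordered by control mean; points are samples and bars the mean of 3. ACADM dropped from 12.7 to 2.21 FPKM, while the other 9 genes kept between 66.8% and 132.0% of their control mean.

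ACADM, medium-chain acyl-CoA dehydrogenase, stood apart from the other 9 genes. ACADM (ENSG00000117054) is listed on GRCh38 chromosome 1 from 75724431 to 75787575 on the + strand. It read 12.6, 13.8 and 11.5 FPKM without doxycycline and 2.36, 1.79 and 2.48 FPKM with it. Every OFD1-depleted value lay far below every control value, with replicate 2 the lowest. The mean went from 12.7 ± 1.15 FPKM to 2.21 ± 0.367 FPKM (SD, n = 3 in each group), so that 17.5% of the control level was left. The log2 fold change was -2.47 (standard error 0.166, 95% interval from -2.84 to -2.11), place 17 from the bottom among the 12025 genes tested, those averaging 1 FPKM or more. For comparison, the 5th percentile of all these genes was -0.98. In bulk RNA, fewer cells with the transcript and less transcript per cell cannot be told apart. Over the 17 alternative ways of processing, the log2 fold change of ACADM stayed between -2.62 and -2.09, and without OFD1-depleted replicate 2 it was -2.34.

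The gene model of ACADM overlaps RABGGTB, a subunit of a Rab prenyltransferase, over 1379 bases on the same strand. RABGGTB was at 27.9 FPKM without and 39.9 FPKM with doxycycline. How reads were divided between the overlapping genes is not given in the sources used here.

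The 300 bases around the annotated start of 3 of the genes are shown, picked after their values were seen. The genes are ACADM, which fell, HADHA of the divergent pair with HADHB, and ETFA, which rose and held motif matches. Whether the changes of HADHA and HADHB differ was not tested. The stretches shown are the RefSeq promoter windows of build GRCh38.p14, 250 bases before to 50 bases from the start, written 5′ to 3′ on the strand of the gene. For ACADM the capitals mark the annotated start and the 50 bases from there on (chr1:75724459-75724758, + strand).
ACADM: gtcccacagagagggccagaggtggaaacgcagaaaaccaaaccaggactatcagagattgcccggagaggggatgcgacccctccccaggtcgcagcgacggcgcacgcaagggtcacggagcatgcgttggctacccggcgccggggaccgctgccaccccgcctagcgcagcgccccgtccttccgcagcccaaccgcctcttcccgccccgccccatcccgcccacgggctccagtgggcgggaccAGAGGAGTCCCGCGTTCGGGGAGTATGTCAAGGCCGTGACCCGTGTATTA
For HADHA the capitals mark the 194 bases that its window shares with that of HADHB, which starts on the opposite strand 307 bases away (chr2:26244583-26244882, - strand).
HADHA: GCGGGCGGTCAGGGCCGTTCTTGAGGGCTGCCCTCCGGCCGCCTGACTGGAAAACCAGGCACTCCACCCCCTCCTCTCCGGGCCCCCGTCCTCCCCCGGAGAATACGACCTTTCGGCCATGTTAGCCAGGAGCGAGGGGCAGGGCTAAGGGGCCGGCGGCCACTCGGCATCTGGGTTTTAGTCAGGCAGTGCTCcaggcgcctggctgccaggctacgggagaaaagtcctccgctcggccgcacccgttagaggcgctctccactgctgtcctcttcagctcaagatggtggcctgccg
For ETFA the capitals mark 2 matches to CCAAT, 92 and 75 bases before the start, and 1 to TGCGCA, 86 bases before it (chr15:76311420-76311719, - strand).
ETFA: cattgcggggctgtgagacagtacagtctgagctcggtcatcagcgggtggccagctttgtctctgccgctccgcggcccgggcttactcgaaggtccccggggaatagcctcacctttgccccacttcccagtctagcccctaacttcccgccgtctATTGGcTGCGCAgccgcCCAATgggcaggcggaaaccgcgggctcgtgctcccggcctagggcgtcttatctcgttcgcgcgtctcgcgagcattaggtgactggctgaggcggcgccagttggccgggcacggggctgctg

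All 10 genes had a window in the RefSeq table, 13 windows in all. They were searched on both strands for AGGTCA (a nuclear receptor half-site), AAGGTCA (an extended form that contains it), TGCGCA (the core of the NRF1 motif), CACGTG (an E-box) and CCAAT. None of the 13 windows held the half-site, its extended form or the E-box, whereas among all 35116 windows of that set the half-site was in 13.8%, the extended form in 3.92% and the E-box in 7.26%. TGCGCA was in the ETFA window only, against 8.24% of all windows. CCAAT was in 1 window each of ETFA, ETFB and HADH, or 3 of 13, against 34.6% of all windows. A missing match says only that these letters are not in these 300 bases.

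The other dehydrogenases of the cycle did not share the drop of ACADM. ACADVL (ENSG00000072778, chromosome 17 from 7217125 to 7225266, + strand) read 84.0, 72.4 and 82.3 FPKM without doxycycline and 74.2, 83.1 and 61.4 FPKM with it, and the groups overlapped. Its log2 fold change was -0.13 (95% interval from -0.45 to 0.18). ACADS (ENSG00000122971, chromosome 12 from 120725774 to 120740008, + strand) read 1.2, 1.0 and 1.65 FPKM without doxycycline and 1.30, 1.99 and 1.19 FPKM with it. Only replicate 2 of the OFD1-depleted samples lay above the control range of ACADS, and its log2 fold change of 0.20 (95% interval from -0.43 to 0.83) became -0.01 without that replicate. ACADVL overlaps DLG4 on the opposite strand over 2717 bases, and DLG4 was at 5.56 FPKM without and 5.77 FPKM with doxycycline.

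Set against ACADVL within a sample, ACADM stood at 0.15, 0.191 and 0.14 of its level in the control replicates. In the OFD1-depleted replicates the ratio was 0.0318, 0.0216 and 0.0404. The mean ratio was thus 0.16 ± 0.0271 in control and 0.0313 ± 0.00944 in OFD1-depleted samples (SD, n = 3 in each group). Such a ratio does not change when a sample is multiplied by a common factor. The ratio of ACADS to ACADM went from 0.104 ± 0.0359 to 0.716 ± 0.346 (SD, n = 3 per group), and in OFD1-depleted replicate 2 ACADS was the higher of the pair, at 1.11 times the level of ACADM.

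Of the 10 genes, 1 was lower (ACADM) and 1 higher (ETFA) with a limma adjusted p-value under 0.05. Over all 12025 genes tested, 11.9% were lower and 5.07% higher by the same rule. The groups did not overlap in 3 genes that were lower (ACADM, CPT1A and HADH) and in 2 that were higher (HADHB and ETFA). Over all genes tested, 22.3% did not overlap with the OFD1-depleted samples lower and 13.8% with them higher. Since the genes were chosen with this comparison known, nothing is read from these counts. The median log2 fold change was -0.10 over the 10 genes and -0.03 over all genes tested.

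CPT1A (ENSG00000110090, chromosome 11 from 68754620 to 68844410, - strand) encodes the enzyme at the outer membrane that commits long chains to oxidation. It read 4.60, 4.36 and 5.95 FPKM without doxycycline and 3.72, 2.92 and 3.31 FPKM with it. The groups did not overlap, and the mean was 4.97 ± 0.856 against 3.32 ± 0.399 FPKM (SD, n = 3 per group). The log2 fold change was -0.56 (95% interval from -0.95 to -0.17), and it did not pass the threshold over all genes. CPT2 (ENSG00000157184, chromosome 1 from 53196792 to 53214197, + strand), its partner at the inner membrane, read 7.12, 5.96 and 6.30 FPKM without doxycycline and 8.43, 7.56 and 6.79 FPKM with it. These groups overlapped, with a log2 fold change of 0.23 (95% interval from -0.09 to 0.55). It overlaps CZIB by 99 bases on the opposite strand, a gene at 23.5 FPKM without and 27.9 FPKM with doxycycline. The ratio of CPT1A to CPT2 within a sample was 0.774 ± 0.153 in control and 0.439 ± 0.0507 in OFD1-depleted samples (SD, n = 3 in each group), and its groups did not overlap.

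HADHA and HADHB encode the alpha and beta subunits of one complex and are listed head to head on chromosome 2, HADHA from 26190635 to 26244672 on the - strand and HADHB from 26243170 to 26290465 on the + strand. HADHA read 49.5, 54.9 and 51.2 FPKM without doxycycline and 53.1, 47.0 and 48.1 FPKM with it, which overlapped. Its log2 fold change was -0.07 (95% interval from -0.34 to 0.20). HADHB read 32.3, 43.2 and 33.9 FPKM without doxycycline and 50.6, 44.1 and 46.7 FPKM with it. The groups of HADHB did not overlap, although control replicate 2 came close to OFD1-depleted replicate 2. Its log2 fold change was 0.38 (95% interval from 0.07 to 0.69), and it did not pass the threshold over all genes. The ratio of HADHA to HADHB was 1.53, 1.27 and 1.51 in the control and 1.05, 1.07 and 1.03 in the OFD1-depleted replicates. The transcripts of the subunits thus lay closer to equal with doxycycline. The gene models overlap by 1503 bases on opposite strands, and the strand setting of the counting is not given in the sources used here.

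ETFA and ETFB encode the alpha and beta subunits of the electron transfer flavoprotein, which accepts electrons from all of the acyl-CoA dehydrogenases. ETFA (ENSG00000140374, chromosome 15 from 76215353 to 76311472, - strand) read 31.2, 34.8 and 29.7 FPKM without doxycycline and 40.5, 45.2 and 40.8 FPKM with it. All OFD1-depleted values of ETFA lay above all control values, with means of 31.9 ± 2.65 and 42.1 ± 2.64 FPKM (SD, n = 3 per group). The log2 fold change was 0.40 (95% interval from 0.13 to 0.68). ETFB (ENSG00000105379, chromosome 19 from 51345169 to 51366388, - strand) read 55.1, 63.5 and 54.1 FPKM without doxycycline and 44.7, 67.7 and 43.7 FPKM with it. In ETFB, OFD1-depleted replicate 2 lay above every control sample and the other two lay below every one, so that the log2 fold change was -0.17 (95% interval from -0.55 to 0.21), and -0.38 without that replicate. Over 16016 bases ETFB overlaps AC008750.7 on the same strand, which averaged 0.803 FPKM without and 1.29 FPKM with doxycycline. The ratio of ETFA to ETFB was 0.566, 0.549 and 0.55 in the control and 0.905, 0.668 and 0.932 in the OFD1-depleted replicates.

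HADH (ENSG00000138796, chromosome 4 from 107989714 to 108035174, + strand) read 11.5, 13.8 and 12.3 FPKM without doxycycline and 11.3, 10.9 and 11.5 FPKM with it. The groups did not overlap, but the lowest control and the highest OFD1-depleted sample were nearly equal. The log2 fold change was -0.16 (95% interval from -0.44 to 0.13).

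The small differences depended on the scaling of the samples. Mitochondrially encoded mRNAs took between 6.65% and 10.97% of the summed FPKM in control and between 12.7% and 16.0% in OFD1-depleted samples. Scaling all samples to the same total moved the median log2 fold change of all genes tested by -0.145. Under it the log2 fold changes were 0.25 for ETFA, 0.23 for HADHB, -0.70 for CPT1A and -2.62 for ACADM. With the same total set without the mitochondrially encoded genes, that median moved by -0.0582, and the values were 0.34 for ETFA, 0.32 for HADHB, -0.62 for CPT1A and -2.53 for ACADM. ETFA was past the threshold in 7 of the 17 alternatives, and not under either of these scalings, without OFD1-depleted replicate 1 or 3 or without any 1 control replicate. The ratios between genes of one sample do not depend on such a factor. The 10 genes together summed to 295 ± 10.9 FPKM without and 289 ± 23.2 FPKM with doxycycline (SD, n = 3 in each group), and ACADM was a small part of either sum.

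Genes with a pattern like that of ACADM were ranked by Pearson's r of log2(FPKM + 0.1) over the 6 samples, among 7882 other genes averaging 5 FPKM or more. The closest were NUF2 (a kinetochore protein, r = 0.9993), POLD3 (a DNA polymerase delta subunit, 0.9988), PAFAH1B1 (a dynein regulator, 0.9987), AHCYL1 (0.9985) and MCM3 (a replicative helicase subunit, 0.9984). Their log2 fold changes lay between -1.50 and -1.04, smaller in size than that of ACADM. An r over 6 samples in 2 groups mostly follows the gap between the groups. By deviations from the group means alone, a different set was closest, namely BIVM, GTF2A1, ATP6V1A, TRAM1 and SLC11A2 (r from 0.9973 to 0.9992). Of the other 9 genes, the 7 that averaged 5 FPKM or more were ranked, and none came before place 1667 in either order. ETFA ran most opposite to ACADM over the 6 samples, with r = -0.92, and HADH was the most alike of those in the order, with r = 0.73.

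Related genes of fatty acid metabolism were described from 9 lists that hold 114 genes, of which 86 averaged 1 FPKM or more and were tested. With a limma adjusted p-value under 0.05, 7 of the 86 fell (8.14%) and 5 rose (5.81%), against 11.9% and 5.07% of all genes tested. The median log2 fold change was 0.03 in the related genes. The number that rose was 12 without OFD1-depleted replicate 2, 1 without control replicate 1 and 2 without control replicate 3, so single libraries moved it by more than 1.5 times.

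Among 7 other acyl-CoA dehydrogenases tested, ACAD9 fell and ACAD11 rose. ACAD9, which is best known as an assembly factor of respiratory complex I, read 12.1, 14.4 and 13.1 FPKM without doxycycline and 7.18, 7.77 and 5.07 FPKM with it. Its log2 fold change was -0.99 (with a standard error of 0.172 and a limma adjusted p of 0.00245). ACAD11, which acts on hydroxylated and long chains, read 4.25, 6.07 and 4.71 FPKM without doxycycline and 8.37, 6.70 and 7.56 FPKM with it (log2 fold change 0.59, limma adjusted p = 0.0341). ACAD11 lost the call when any 1 was left out of control replicates 1 and 3 and OFD1-depleted replicates 1 and 3. It passed in 9 of the 17 alternatives, and not when samples were scaled to the same total, with or without the mitochondrially encoded genes. The branched-chain and amino acid dehydrogenases ACAD8, ACADSB, IVD and GCDH, together with ACAD10, were between -0.14 and 0.35 on the log2 scale and did not pass. ACADL, the long-chain relative of ACADM, averaged 0.01 FPKM in control and was listed at 0 in the OFD1-depleted samples.

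Of 11 remaining enzymes of mitochondrial beta-oxidation tested, 2 rose and none fell past the threshold (none also at an unadjusted p under 0.05). HSD17B10, a 3-hydroxyacyl dehydrogenase that is also a subunit of mitochondrial RNase P, read 40.3, 46.7 and 45.8 FPKM without doxycycline and 62.5, 88.5 and 56.7 FPKM with it (log2 fold change 0.62, limma adjusted p = 0.0271). It lost the call without any 1 control replicate. ACOT2, a mitochondrial acyl-CoA thioesterase, rose from 34.9 ± 0.849 FPKM to 51.9 ± 5.74 FPKM (SD, n = 3 in each group, limma adjusted p = 0.0114). Its near-identical copy ACOT1 was at 3.16 FPKM without and 5.13 FPKM with doxycycline, and reads shared between the pair make both uncertain. Without control replicate 1 the adjusted p of ACOT2 was 0.0653. ETFDH, which passes the electrons of the flavoprotein on to ubiquinone, had a log2 fold change of 0.34 and did not pass (limma adjusted p = 0.101), and neither did ECHS1 at 0.31, the hydratase of the cycle, or the thiolase ACAA2 at 0.09.

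In the carnitine shuttle none of the 5 other genes tested passed the limma threshold, and none had an unadjusted p under 0.05. The carnitine carrier SLC25A20 was at 0.02 and the carnitine importer SLC22A5 at -0.23 on the log2 scale. Among 10 genes of uptake, binding and activation, 2 fell and none rose (none also at an unadjusted p under 0.05). FABP4, a fatty acid binding protein, went from 1.90 ± 0.423 FPKM to 0.776 ± 0.324 FPKM (SD, n = 3 in each group, limma adjusted p = 0.0293), close to the limit of 1 FPKM used for testing. FABP4 lost the call without control replicate 1 or 2 or OFD1-depleted replicate 3. ACSL4, an acyl-CoA synthetase for polyunsaturated chains, went from 43.6 ± 7.6 FPKM to 29.7 ± 5.2 FPKM (SD, n = 3 in each group, limma adjusted p = 0.0449) and lost the call without any 1 of the 6 samples.

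Of 9 genes for propionyl-CoA and ketone bodies, 1 fell and 1 rose. OXCT1, the enzyme by which tissues use ketone bodies, fell from 16.2 ± 1.59 FPKM to 9.91 ± 1.21 FPKM (SD, n = 3 in each group, log2 fold change -0.70, limma adjusted p = 0.00649). BDH2, a cytosolic dehydrogenase, rose from 10.7 ± 0.182 FPKM to 17.1 ± 1.6 FPKM (SD, n = 3 in each group, log2 fold change 0.67, limma adjusted p = 0.00468). BDH2 overlaps SLC9B2 on the same strand, which was at 6.11 FPKM without and 8.04 FPKM with doxycycline. Of 13 peroxisomal genes 1 rose and none fell past the limma threshold, where 1 was lower at an unadjusted p under 0.05. DECR2, a peroxisomal dienoyl-CoA reductase, rose from 18.9 ± 2.05 FPKM to 28.8 ± 3.76 FPKM (SD, n = 3 in each group, limma adjusted p = 0.0144). DECR2 overlaps NME4 on the same strand, which was at 65.6 FPKM without and 99.1 FPKM with doxycycline, and it lost the call without control replicate 1 or 3.

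Of 22 regulators tested, 2 fell and none rose past the limma threshold, where 4 were higher at an unadjusted p under 0.05. LPIN1, a phosphatidate phosphatase that also acts as a coactivator of PPARA, read 21.6, 17.2 and 17.1 FPKM without doxycycline and 10.5, 7.004 and 10.1 FPKM with it (log2 fold change -1.03, standard error 0.175, limma adjusted p = 0.00226). RXRA, the partner with which PPAR receptors bind DNA, fell from 10.4 ± 1.01 FPKM to 6.62 ± 0.533 FPKM (SD, n = 3 in each group, limma adjusted p = 0.00882), and its adjusted p was 0.062 without control replicate 3. The receptors PPARA (0.22), PPARD (-0.18) and PPARG (0.36) did not pass on the log2 scale, nor did ESRRA (0.35). The coactivator PPARGC1A was listed at 0 in all 6 samples. Of 5 PPAR target genes outside beta-oxidation, ANGPTL4, a secreted inhibitor of lipoprotein lipase, fell from 3.95 ± 0.704 FPKM to 1.70 ± 0.573 FPKM (SD, n = 3 in each group, limma adjusted p = 0.0078), and none rose (none also at an unadjusted p under 0.05). PDK4, another such target, was listed at 0 in all samples. The 4 genes of flavin supply tested did not pass the limma threshold, 1 of them at an unadjusted p under 0.05.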

How the data were processed

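RNA-seq was analysed in 6 samples, 3 control and 3 OFD1-depleted, grouped by their titles. By the methods and the submitters' processing notes, the authors aligned paired-end reads of 150 bases with HISAT2 (version 2.0.5) to the Ensembl human reference of build GRCh38 and deposited 1 FPKM value per gene and sample, computed by StringTie. The sources used here give no StringTie version and no strand setting. The methods name a directional library kit, and the labels name a TruSeq kit beside it. The study calls its replicates biological but does not say that they were separate cultures, so p-values measure the spread between these samples, which may be technical.

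The table lists 67130 genes. The 6464 on alternative contigs were at 0 and were left out. It holds no counts, so depth was only estimated, and no count model was used. Genes averaging 1 FPKM or more were compared as log2(FPKM + 0.1) with limma (version 3.58.1, R 4.3.3) with a variance trend, two-sided, with Benjamini-Hochberg adjustment over all 12025 genes tested. A fold change on this scale understates that of low genes. The fit was tested on simulated data. The 10 genes, the lists and the motifs were chosen with earlier results of these data known. Named are the 10 genes, OFD1, at most 3 related genes per list and direction past the threshold, genes most like ACADM, and overlapping genes or pseudogenes of the 10 (pseudogenes were under 0.1 FPKM). Other related genes named beside a count were picked after their values were seen. Protein sequences were not used here. Alternatives were 2 other pseudocounts, 2 filters, 4 scalings, 2 variance models, the replicate block and each sample left out. Python 3.11.15 with numpy 2.4.6 and pandas 2.3.3 was used. Some genes of the lists and of the overlaps are not reported here.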

Additional observations from a re-analysis of the deposited data

How the results depend on the processing

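There were 17 alternatives, or 16 for ACADS, CPT1A, FABP4, ANGPTL4 and OFD1, which averaged under 5 FPKM. In those run, none of the 23 genes followed (the 10, OFD1 and the 12 related genes named) changed sign past the threshold, and ACADS, which did not pass, went to -0.01 without OFD1-depleted replicate 2. Of OFD1 and the 12 related genes, ACAD9, BDH2, LPIN1, OXCT1 and OFD1 passed the threshold in each alternative run for them. ACOT2 and RXRA passed in 16, DECR2 in 14, HSD17B10 in 12, ACAD11 in 9 and ACSL4 in 6 of 17. ANGPTL4 passed in 15 and FABP4 in 12 of 16. The cause of the changes that follow was not tested.

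Without the filter on low values, 823 genes were lower and 260 higher. Array weights gave 2263 lower and 1693 higher. Scaling to the same total per sample (TPM scaling) gave 1990 lower and 272 higher, and quantile normalization gave 1313 lower and 1085 higher. Median-of-ratios scaling gave 1314 lower and 854 higher, and limma without the trend gave 1302 lower and 496 higher. With the same total without mitochondrially encoded genes, 1432 were lower and 408 higher. The comparison as reported gave 1429 lower and 610 higher. Leaving out each sample in turn gave 882 to 1766 lower and 252 to 1097 higher.

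Of the 10 genes, limma called 2 lower under TPM scaling and with array weights (CPT1A beside ACADM in both), and 1 to 2 without 1 sample (ETFB beside ACADM without OFD1-depleted replicate 2). It called 2 higher (ETFA and HADHB) with array weights and with median-of-ratios scaling, and 0 higher under TPM scaling (0 also at an unadjusted p under 0.05), without the trend, without the filter, with the same total without mitochondrially encoded genes and with the replicate block (2 at an unadjusted p under 0.05 in each of these). Without 1 sample it called 0 to 1 higher (1 to 2 at an unadjusted p under 0.05), and without control replicate 2 the 1 was HADHB in place of ETFA. Nothing is read from these counts, since the calls over all genes moved with the setting as well.

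Of the related genes, array weights gave 17 lower and 19 higher, and no filter gave 4 lower and 2 higher. The number higher was 3 without the trend, 11 with median-of-ratios scaling, 13 with quantile normalization and 1 to 12 without 1 sample.

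Samples with the same replicate number had deviations from the group means that correlated at 0.0579, 0.0481 and 0.011 across genes. Between samples with different numbers the correlations lay between -0.0799 and 0.0503. Such small values cannot decide whether samples with the same number were handled together. The replicate block gave 1534 lower and 762 higher genes, 1945 of them shared with the comparison without it.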
